A study of Rattus norvegicus with 8 samples.

Results

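Solute carriers are the membrane proteins that move ions, amino acids, vitamins, metals and metabolites across the cell surface and the membranes of organelles, and 39 of their genes were measured in purified rat retinal ganglion cells (RGCs). The genes were chosen by symbol alone: all symbols made of Slc, a number, the letter a and a number were taken, and no Slco symbol was found. The gene table that pairs symbols with identifiers was held only in part, so that 1998 of the 32623 gene identifiers counted had a symbol, and the 39 genes are the family members among those 1998 and not the whole family. RGCs, the neurons whose axons form the optic nerve, were taken from Sprague Dawley rats either on embryonic day 21 (E21) or on day 11 after birth (P11), with 4 libraries per stage from independent litters and no treatment or transgene named for any group. Retinas were dissociated with papain, of which more was used at P11, and the cells were panned on an anti-macrophage antibody to remove macrophages and then on an anti-Thy1 antibody, over a few hours in all. Total RNA was depleted of ribosomal RNA before sequencing. The question was how transcription differs between RGCs at the height of axon growth and RGCs close to eye opening.

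Carriers of the SLC families need no ATP of their own: they let a solute run down its gradient or couple its transport to a gradient of sodium, protons or another solute. In neurons they set the amino acid supply, extrude calcium after activity, keep endosomes and lysosomes at their pH, load and unload zinc and feed mitochondria. Members of a family often carry related substrates but sit in different membranes, so the genes are described by what they carry. Of the 39 genes, 36 are described one by one and 3 enter the counts and the total only.

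Levels are given as CPM, a gene's reads scaled to a common library total by TMM normalization, which corrects for composition, and they are compared between stages for a gene but not between genes, since CPM does not correct for transcript length. A gene was called at an adjusted p below 0.01 in edgeR's quasi-likelihood test and a log2 fold change beyond 1, P11 over E21. Libraries held 13899299 to 20116017 counted reads, so that 3 reads, taken as the floor of detection, were worth 0.152 to 0.219 CPM, which covers counting error only. Entries set aside as aligned to more than one place made up 40.3% ± 2.04 (SD, n = 4) of all entries, counted or set aside, at E21 and 34.7% ± 2.14 at P11. A read with several alignments may enter more than once, so these are not shares of reads. No pair of libraries of a stage was the same within counting noise, since the chi-square between their counts was 2.86 to 8.18 per degree of freedom.

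Between E21 and P11, 35 of the 39 genes had enough reads to be tested. The called genes were Slc8a2, Slc7a4, Slc44a4, Slc4a4, Slc7a3, Slc46a3 and Slc43a2, higher at P11, and Slc16a10 and 1 gene not reported here, higher at E21. The 7 genes higher at P11 were 20% of the 35 tested, where 16.5% of all 14043 genes tested were called in that direction. The 2 genes higher at E21 were 5.71%, beside 8.16% of all genes. In either direction 9 solute carrier genes, or 25.7%, were called, beside 24.7% of all genes, so the share called was near that of any gene. DESeq2 called the same 9 genes. The log2 fold changes of the 35 ran from -2.0 to 1.93 with a median of 0.08, beside a median of -0.0042 over all genes, and 18 were above 0 and 17 below. For 28 of the 35, or 80.0%, the 4 libraries of a stage all lay on one side of the 4 libraries of the other, beside 71.3% of all genes tested. All P11 libraries were the higher ones for 15 genes, beside 35.9% of all genes, and all E21 libraries for 13, beside 35.4%. An adjusted p below 0.01 at any fold was found for 26 members, or 74.3%, beside 68.4% of all genes. The counts of called genes by class and list below are small and are read against the same shares of all genes. Counts at an unadjusted p below 0.05 have no such share, but 68.4% of all genes already had an adjusted p below 0.01.

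**Figure D1:**
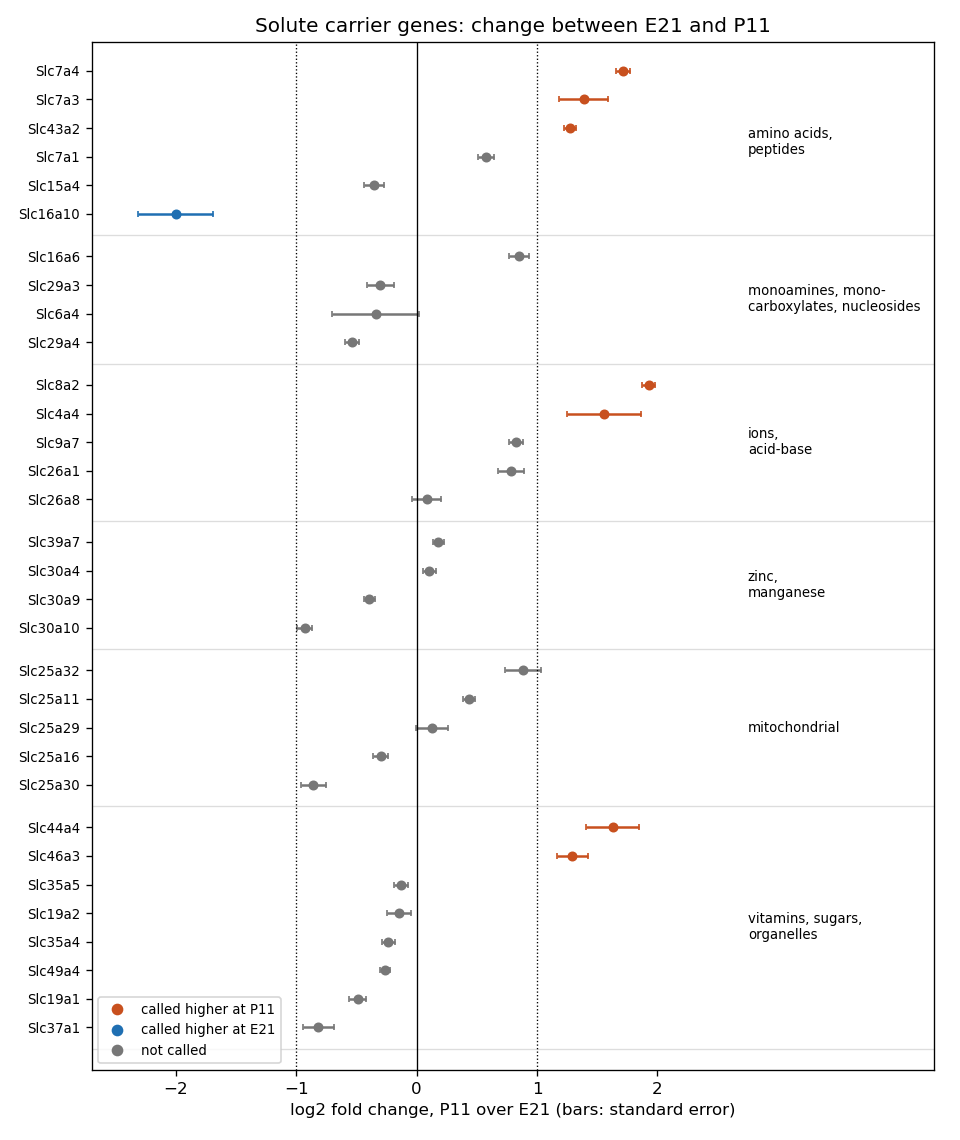
Log2 fold change, P11 over E21, of 32 of the 35 solute carrier genes tested (x axis), grouped by what they carry, with the standard error of edgeR's fit as bars and dotted lines at the fold threshold. The 7 genes called higher at P11 (orange) lie in 3 of the 6 classes, from Slc43a2 at 1.28 to Slc8a2 at 1.93, and Slc16a10 at -2.0 (blue) is the only gene shown that was called higher at E21.

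Windows taken as promoters are shown for 3 called genes: Slc8a2, which had the largest rise, Slc16a10, which had the largest fall, and Slc44a4, which was the only one whose promoter held the cAMP response element half-site TGACGT among the 29 of the 39 with an entry in the promoter table. They are RefSeq sequences of the GRCr8 assembly, from 250 bases before to 50 bases after the annotated start of each gene, whereas the reads were aligned to Rnor_6.0. They lie at chr1:85950512-85950811 on the plus strand for Slc8a2, chr20:45122309-45122608 on the minus strand for Slc16a10 and chr20:3923805-3924104 on the minus strand for Slc44a4. Capitals mark TGACGT, the GC box GGGCGG and the CCAAT box CCAAT, searched on both strands.
Slc8a2: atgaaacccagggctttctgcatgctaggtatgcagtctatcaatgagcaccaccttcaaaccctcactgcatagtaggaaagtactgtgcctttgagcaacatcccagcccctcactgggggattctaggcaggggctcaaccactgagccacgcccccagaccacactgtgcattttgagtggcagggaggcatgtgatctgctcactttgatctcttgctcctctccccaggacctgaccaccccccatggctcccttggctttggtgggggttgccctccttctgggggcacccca
Slc16a10: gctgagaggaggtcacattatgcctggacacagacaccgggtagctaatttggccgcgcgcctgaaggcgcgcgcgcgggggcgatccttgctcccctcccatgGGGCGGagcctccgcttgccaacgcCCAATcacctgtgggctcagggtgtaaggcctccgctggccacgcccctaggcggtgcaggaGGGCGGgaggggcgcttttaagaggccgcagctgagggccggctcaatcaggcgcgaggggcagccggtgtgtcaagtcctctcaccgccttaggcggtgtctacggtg
Slc44a4: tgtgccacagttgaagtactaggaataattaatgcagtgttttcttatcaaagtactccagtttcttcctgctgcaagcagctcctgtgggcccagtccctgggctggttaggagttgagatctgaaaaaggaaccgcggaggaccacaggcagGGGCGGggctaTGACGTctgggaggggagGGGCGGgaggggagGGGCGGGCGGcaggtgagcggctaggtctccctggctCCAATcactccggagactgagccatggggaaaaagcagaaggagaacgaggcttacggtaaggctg
In the Slc44a4 promoter the half-site began at -85 from the start, between GC boxes that began at -96, -67, -53 and -49, the last pair overlapping, and a CCAAT box began at -16. The Slc16a10 promoter held GC boxes at -146 and -59 and a CCAAT box at -121. None of these letters occurred in the Slc8a2 window. The bases after its annotated start begin with ATG, so that start may be a start codon. The window may then not hold the promoter of Slc8a2, and the absence of these letters does not describe it. The GC box occurred in 19 of the 29 promoters (65.5%), beside 33.1% of all 33469 promoters in the table, and the CCAAT box in 16 (55.2%), beside 37.5%. The half-site TGACGT occurred in 1 (3.45%), beside 7.94%, and its full form TGACGTCA, which contains it, in 0, beside 1.83%. The TATA box TATAAA occurred in 0 of the 29, beside 14.2%, and the E-box CACGTG in 3 (10.3%), beside 6.42%. Base composition differed as well, with a median of 62.3% G and C in the 29 promoters and 51.7% in all. A match of letters describes the window and not the binding of a factor.

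Among the 6 carriers of ions and of acid-base equivalents described, 5 were tested, 2 were called higher at P11 and none was called higher at E21 by edgeR, in which direction 0 had an unadjusted p below 0.05. Of all genes tested, 16.5% were called higher at P11 and 8.16% higher at E21. The largest rise of all 35 genes tested was that of Slc8a2 (ENSRNOG00000001492), which encodes the sodium-calcium exchanger NCX2 that moves calcium out of neurons. Its level was 100.7, 95.2, 110 and 91.6 CPM in the 4 E21 libraries and 388, 368, 385 and 373 CPM in the 4 P11 libraries. The stages were far apart, with little spread within either, and the mean rose 3.80-fold from 99.5 ± 8.19 to 379 ± 9.61 CPM (SD, n = 4). The log2 fold change was 1.93 with a standard error of 0.05 (edgeR adjusted p = 9.07e-15). It kept between 1.88 and 1.98 whichever library was left out.

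Slc4a4 (ENSRNOG00000003134), an electrogenic sodium bicarbonate cotransporter known mainly from glia in the nervous system, rose from a low level. Its E21 libraries held 0.402, 0.608, 0.577 and 0.219 CPM and its P11 libraries 1.61, 1.48, 1.02 and 1.47 CPM. The stages did not overlap, but these values rest on 3 to 27 reads per library. The log2 fold change was 1.55 with a standard error of 0.31 (edgeR adjusted p = 2.26e-04), and the call was lost when the fold change was tested against the threshold of 1 itself (edgeR glmTreat, adjusted p = 0.0676). It was absent from the fit that asked for 10 reads in every library.

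The other ion carriers tested were not called. Slc9a7, which encodes a sodium-proton exchanger of the Golgi network, had 54.3 ± 1.67 CPM at E21 and 96.4 ± 7.37 CPM at P11. Its log2 fold change of 0.82 ± 0.06 (SE; edgeR adjusted p = 5.18e-10) stayed within the fold threshold. Slc26a1, a sulfate and oxalate exchanger, had 6.69 ± 0.618 and 11.5 ± 1.02 CPM and a log2 fold change of 0.78 ± 0.11, and Slc26a8, an anion carrier known from sperm, had 6.75 ± 0.667 and 7.19 ± 0.563 CPM (adjusted p = 0.534). Slc12a8, of the family of cation-chloride cotransporters, was below the filter on low counts, with 5 to 16 reads per library at both stages.

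All 6 amino acid and peptide carriers were tested, and 3 were called higher at P11 and 1 higher at E21, beside 16.5% and 8.16% of all genes. Slc7a4 (ENSRNOG00000001874), a relative of the cationic amino acid transporters whose own substrate is not settled, had 15.9, 14.9, 14.3 and 14.1 CPM at E21 and 50.8, 48.2, 48.0 and 47.5 CPM at P11. Both stages were narrow and the mean rose 3.28-fold, with a log2 fold change of 1.71 ± 0.06 (SE; edgeR adjusted p = 1.81e-13).

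Slc43a2 (ENSRNOG00000003835) encodes LAT4, which lets branched-chain amino acids, methionine and phenylalanine leave or enter cells without sodium. Its libraries held 90.0, 83.9, 82.7 and 84.5 CPM at E21 and 210, 220, 205 and 191 CPM at P11. The lowest P11 library was thus above the highest E21 library by a wide margin, and the log2 fold change was 1.28 ± 0.05 (adjusted p = 4.02e-13). This gene had the highest mean CPM in its class.

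The cationic amino acid transporters CAT1 and CAT3, which carry arginine and lysine, are encoded by Slc7a1 and Slc7a3. Slc7a3 (ENSRNOG00000004133), the form best known from neurons, had 1.27, 1.27, 1.73 and 2.05 CPM at E21 and 3.70, 4.68, 4.70 and 3.38 CPM at P11. The libraries did not overlap, and the log2 fold change was 1.39 ± 0.21 (edgeR adjusted p = 1.07e-05), a call that was lost when tested against the threshold of 1 (glmTreat, adjusted p = 0.0556). Slc7a1, the form found in most tissues, had 20.2 ± 1.15 and 30.2 ± 2.07 CPM and was not called, at a log2 fold change of 0.58 ± 0.07.

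Slc16a10 (ENSRNOG00000000588) encodes TAT1, which carries aromatic amino acids. It fell from 3.28, 1.32, 2.15 and 2.49 CPM at E21 to 0.538, 0.474, 0.508 and 0.709 CPM at P11. The E21 libraries varied more than those of most members, with an SD of 35.2% of the mean, yet the lowest of them stayed above the highest P11 library. The log2 fold change was -2.0 ± 0.31 (edgeR adjusted p = 1.77e-05), with 8 to 13 reads in each P11 library. Slc15a4, a lysosomal carrier of histidine and small peptides, had 27.5 ± 2.47 CPM at E21 and was not called, with 21.5 ± 2.10 CPM at P11.

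Of the carriers of monoamines, monocarboxylates and nucleosides, 4 are described, all of which were tested. None of the 4 was called by edgeR, with 1 higher at P11 and 2 higher at E21 at an unadjusted p below 0.05. Slc6a4, the serotonin transporter, is known to be made for a time by a subset of RGCs in developing rodents. It was the most uneven of the 35 genes at E21, at 16.0, 12.2, 32.7 and 22.8 CPM, with an SD of 43.0% of the mean, and it held 12.4, 13.8, 16.6 and 23.0 CPM at P11. The stages overlapped, and the log2 fold change was -0.34 ± 0.36 (edgeR adjusted p = 0.423), between -0.55 and -0.02 when single libraries were left out. Of 5 other genes of serotonin signalling and handling that had a symbol, 3 were tested and 1 was called, beside 24.7% of all genes in either direction. The called one was the serotonin receptor gene Htr5b, which rose from 0.991 ± 0.617 to 12.2 ± 1.21 CPM (log2 fold change 3.54 ± 0.26, edgeR adjusted p = 2.98e-08).

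Slc29a4 encodes PMAT, a low-affinity, high-capacity carrier of serotonin, dopamine and organic cations, and had the highest mean CPM of its class. It had 348, 333, 338 and 286 CPM at E21 and 221, 235, 227 and 215 CPM at P11. Each of the E21 libraries exceeded the highest P11 library, and the log2 fold change of -0.54 ± 0.05 (adjusted p = 1.89e-07) was within the fold threshold. Slc29a3, which encodes the nucleoside transporter of lysosomes, had 9.05 ± 0.346 and 7.33 ± 1.01 CPM (adjusted p = 0.0248), and Slc16a6, of the monocarboxylate transporter family, had 19.7 ± 2.15 and 35.4 ± 2.67 CPM with a log2 fold change of 0.85 ± 0.08.

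**Figure D2:**
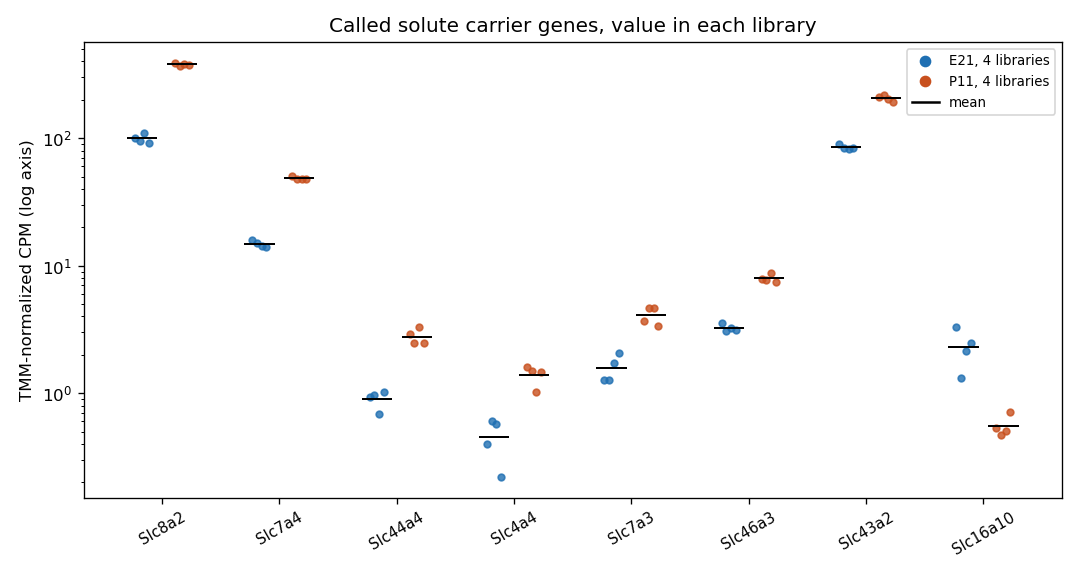
TMM-normalized CPM on a log axis of 8 called genes in each of the 4 E21 (blue) and 4 P11 (orange) libraries, with the mean of each stage as a bar. No gene has overlapping stages, and the libraries scatter most for Slc4a4, Slc7a3 and Slc16a10, which lie below 5 CPM.

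None of the 4 zinc and manganese carriers was called by edgeR, although 3 of them, 1 higher at P11 and 2 higher at E21, had an adjusted p below 0.01 and the same number an unadjusted p below 0.05. Slc30a9, a member of the zinc exporter family, had the highest mean CPM of the class, at 122, 119, 124 and 131 CPM at E21 and 95.0, 93.2, 99.0 and 90.0 CPM at P11. Its stages were apart, with a log2 fold change of -0.39 ± 0.04 (edgeR adjusted p = 4.67e-07). Slc30a10, which exports manganese, came nearest to the fold threshold from below, at 74.8 ± 5.19 and 39.2 ± 2.94 CPM and a log2 fold change of -0.93 ± 0.06, which stayed between -0.97 and -0.88 under all alternatives tried. Slc39a7, which releases zinc from the endoplasmic reticulum, had 82.0 CPM at E21 and 92.9 CPM at P11 (log2 fold change 0.18 ± 0.05), and Slc30a4, which loads zinc into endosomes and vesicles, had 50.7 ± 1.40 and 54.6 ± 2.83 CPM (adjusted p = 0.0714). The log2 ratio of Slc30a4 to Slc30a9 went from -1.29 ± 0.07 to -0.79 ± 0.05 (SD, n = 4), without overlap.

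Of the 6 carriers of the mitochondrial inner membrane family described, 5 were tested and none was called by edgeR, with 2 in each direction at an unadjusted p below 0.05. Slc25a11 exchanges oxoglutarate for malate in the malate-aspartate shuttle and had the highest mean CPM of the class, with 61.8, 60.7, 64.0 and 58.8 CPM at E21 and 83.9, 87.6, 81.2 and 78.7 CPM at P11. All P11 libraries were above all E21 libraries, at a log2 fold change of 0.43 ± 0.05 (edgeR adjusted p = 3.39e-07). Slc25a32, which brings folate or FAD into mitochondria, had 3.64 ± 0.685 and 6.77 ± 0.306 CPM (0.88 ± 0.15), and Slc25a30 had 12.3 ± 0.562 and 6.80 ± 0.652 CPM (-0.86 ± 0.10), the largest differences of the class in each direction. Slc25a16 had 41.6 ± 2.62 and 33.7 ± 1.36 CPM (-0.30 ± 0.06). Slc25a29, a carrier of basic amino acids, had a log2 fold change of 0.13 ± 0.13, which did not pass the test. Slc25a47, known from liver, was below the filter, with 3 to 12 reads per library.

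Among the 10 carriers of vitamins, sugars and other organelle cargo, 8 were tested and 2 were called higher at P11, beside 16.5% of all genes. The other 6 were not called, 5 of them with lower levels at P11 at an unadjusted p below 0.05 in edgeR. Slc44a4 (ENSRNOG00000000878), a choline transporter-like protein that carries thiamine pyrophosphate in the colon, had 0.937, 0.963, 0.682 and 1.02 CPM at E21 and 2.89, 2.49, 3.30 and 2.45 CPM at P11. The stages did not overlap, and the rise was 3.09-fold, at a log2 fold change of 1.63 ± 0.22 (edgeR adjusted p = 3.98e-06) on 13 to 52 reads per library. Slc46a3 (ENSRNOG00000000937) encodes a lysosomal membrane carrier. It had 3.55, 3.09, 3.25 and 3.14 CPM at E21 and 7.93, 7.75, 8.76 and 7.47 CPM at P11. The stages were apart by more than the spread of either, with a log2 fold change of 1.29 ± 0.13 (adjusted p = 9.36e-08). That call was lost when tested against the threshold of 1 (glmTreat, adjusted p = 0.0263).

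The 6 genes of this class that were tested and not called all had log2 fold changes below 0, from -0.82 to -0.13. Slc49a4, which encodes a lysosomal membrane protein, had the highest mean CPM of the class, at 136, 131, 133 and 132 CPM at E21 and 108, 114, 113 and 109 CPM at P11. Its stages were narrow and apart, at a log2 fold change of -0.26 ± 0.04. Slc37a1, a sugar phosphate exchanger, had 11.5 ± 1.92 and 6.54 ± 0.723 CPM (-0.82 ± 0.13), and Slc19a1, the reduced folate carrier, had 23.0 ± 1.09 and 16.4 ± 0.932 CPM (-0.49 ± 0.07). Slc19a2, a thiamine transporter, was at 11.6 and 10.4 CPM (-0.15 ± 0.10), Slc35a4 at 55.9 ± 2.56 and 47.5 ± 2.82 CPM and Slc35a5 at 37.0 ± 1.15 and 33.8 ± 1.34 CPM. The Slc35a genes belong to the family of nucleotide-sugar transporters.

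The remaining members of the class were below the filter. Slc10a6, a carrier of sulfated steroids, held 14, 15, 20 and 8 reads in the E21 libraries and 2, 0, 5 and 3 in the P11 libraries. All E21 libraries were above all P11 libraries, 3 of which were at or below the floor of 3 reads, and the gene was called higher at E21 when the filter was dropped (edgeR adjusted p = 7.47e-06) and in 5 of the 8 fits that left out a library. Slc5a10, a sugar carrier of the kidney, held at most 3 reads in any library, which is no more than the floor at either stage.

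**Figure D3:**
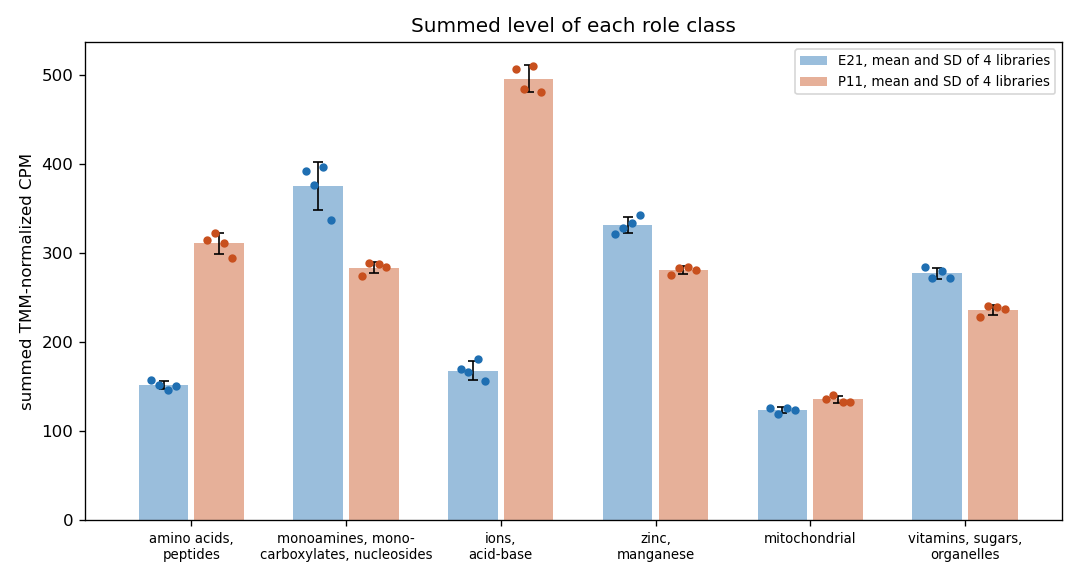
Summed TMM-normalized CPM of the described genes of each class, with bars for the mean and error bars for the SD of the 4 E21 (blue) and 4 P11 (orange) libraries and points for the libraries. The ion and acid-base class stood at 168 at E21 and 496 at P11, and the amino acid class at 152 and 311, while the other classes differed by less in proportion. Most of the difference came from Slc8a2 (279 CPM) in the ion class and from Slc43a2 (121 CPM) in the amino acid class.

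Added up, the 39 genes held 0.156% to 0.164% of the counted reads in the E21 libraries and 0.193% to 0.198% in the P11 libraries, and their summed level was 1640 ± 41.0 CPM and 1927 ± 27.7 CPM. The difference of 287 CPM is the balance of increases that summed to 558 CPM and decreases that summed to -271 CPM. Slc8a2 alone accounted for 279 CPM, and without it the sum differed by 7.86 CPM. Slc43a2 followed with 121 CPM, Slc9a7 with 42.1 CPM and Slc7a4 with 33.8 CPM. In the other direction stood Slc29a4 with -101 CPM and Slc30a10 with -35.6 CPM. A sum of CPM weights each gene by its abundance and length, so these figures describe reads and not numbers of transporters. Over the described genes of a class, the sum was 376 ± 26.7 and 284 ± 6.54 CPM for monoamine, monocarboxylate and nucleoside carriers, 331 ± 8.68 and 281 ± 4.13 CPM for zinc and manganese carriers, 124 ± 3.18 and 136 ± 3.61 CPM for mitochondrial carriers and 277 ± 5.96 and 237 ± 5.72 CPM for vitamin, sugar and other organelle carriers.

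To ask whether close relatives changed by the same amount, the log2 ratio of their CPM was compared between stages for 8 pairs by a two-sided exact permutation test, for which 4 libraries against 4 give no p below 0.0286. Of these, 5 are described. The ratio of Slc30a4 to Slc30a9 changed by 0.50 and did not overlap between the stages. It reached the smallest p, 0.0286, but its Benjamini-Hochberg adjusted p over the 8 pairs was 0.0762, so it did not pass after adjustment. Slc7a1 against Slc7a3 changed by -0.75 (exact permutation p = 0.0571, adjusted p = 0.114). For Slc19a1 against Slc19a2 the change was -0.33 and for Slc29a3 against Slc29a4 it was 0.23 (exact permutation p = 0.0857 for each), and for Slc35a4 against Slc35a5 it was -0.11 (exact permutation p = 0.171).

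**Figure D4:**
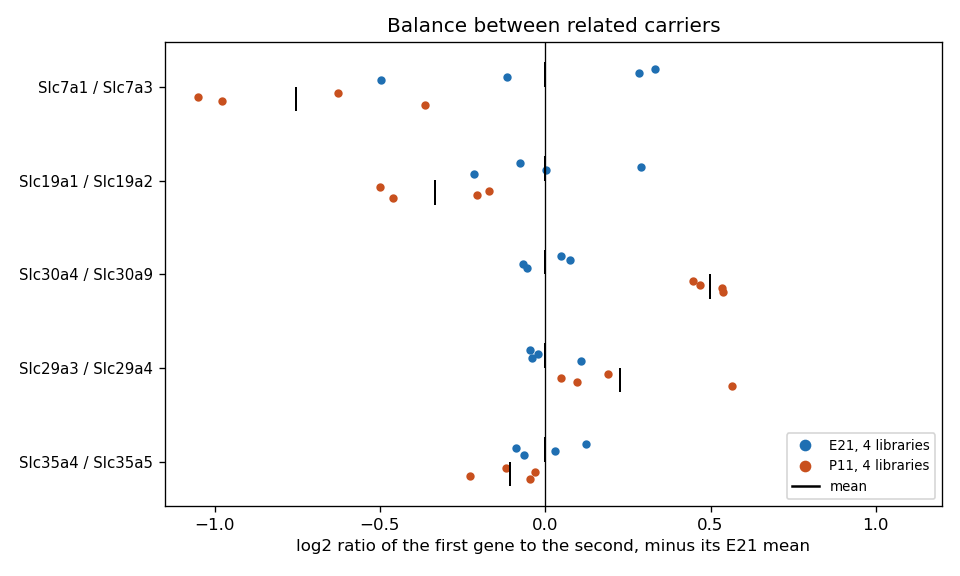
Log2 ratio of CPM between the genes of 5 pairs in each library, minus the mean ratio of the E21 libraries (x axis), with E21 libraries in blue, P11 libraries in orange and the stage means as black bars. Slc30a4 / Slc30a9, centred at 0.50 at P11, shows the P11 libraries clear of the E21 libraries, whereas the P11 libraries of Slc35a4 / Slc35a5 overlap with those of E21.

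Other transporter genes give the setting, where 16.5% of all genes tested were called higher at P11 and 8.16% higher at E21. Of 13 carriers outside the symbol rule, which include Clcn4 and Clcn5 of the CLC family, 12 were tested. By edgeR 2 were called higher at P11 and 0 higher at E21. At an unadjusted p below 0.05 there were 9 and 2, where 68.4% of all genes tested had an adjusted p below 0.01. The larger of the called changes was in Tmem163, a zinc transporter of synaptic vesicles and lysosomes, which rose from 83.2 ± 6.37 to 377 ± 9.96 CPM (log2 fold change 2.18 ± 0.05, edgeR adjusted p = 1.87e-15). Of 20 ATP-driven transporters, 17 were tested, 5 were called higher at P11 and 2 higher at E21. The largest change among them was in Atp1b1, the beta subunit of the sodium-potassium pump that maintains the sodium gradient most carriers draw on, which rose from 158 ± 22.7 to 1327 ± 102 CPM (3.06 ± 0.11, adjusted p = 2.92e-09). Of 5 genes for partners and regulators of carriers, 2 were called in each direction. Slc9a3r1, a scaffold protein that anchors transporters and whose name only resembles a carrier's, rose from 0.336 ± 0.0989 to 9.24 ± 2.07 CPM (4.79 ± 0.25, adjusted p = 2.66e-11).

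Markers of other cells differed between the stages too. Their calls stand beside 16.5% of all genes tested called higher at P11 and 8.16% called higher at E21. The 4 markers of mural and connective tissue cells were all called higher at P11, and their sum was 4.46 to 7.30 CPM in the E21 libraries and 409 to 800 CPM in the P11 libraries, led by Rgs5, a pericyte gene, at 1.47 ± 0.774 and 232 ± 69.8 CPM. The endothelial list had 2 of 5 markers called higher at P11, with sums of 0.402 to 1.17 and 9.48 to 13.3 CPM, Flt1 at 0.152 ± 0.111 and 3.65 ± 1.25 CPM and Selp at or below 3 reads everywhere. Photoreceptor markers, 4 of 7 of which were called higher at P11, summed to 27.1 to 30.6 CPM at E21 and 68.6 to 84.7 CPM at P11, with the rod gene Pde6b at 0.123 ± 0.115 and 6.52 ± 1.77 CPM. Rgs9, which was not called, held most of the E21 sum (20.9 ± 1.10 and 36.2 ± 1.92 CPM, log2 fold change 0.79). The called markers had log2 fold changes of 2.80 to 5.69, and those not called had 0.30 to 0.85. The photoreceptor sum thus changed by less than its called markers did. In the astrocyte and Müller cell list, 1 of 4 markers was called in each direction: the sum was 24.6 to 33.7 CPM at E21 and 1.91 to 3.49 CPM at P11, S100b stood at 0.0294 ± 0.0346 and 1.64 ± 0.624 CPM, Gja1, named after its values were seen, at 26.8 ± 4.15 and 0.885 ± 0.477 CPM, and Gfap was at or below 3 reads throughout. Without Gja1 the direction of this sum turned, to 0.669 to 0.861 CPM at E21 and 1.15 to 2.62 CPM at P11. The turned sum followed S100b. Sox9, which was below the filter, was lower at P11, as Gja1 was (0.623 ± 0.115 and 0.354 ± 0.0917 CPM). The bipolar cell list, with 2 of 4 markers tested and 1, Prkca, called higher at P11 (38.3 ± 2.68 and 87.5 ± 3.23 CPM), summed to 41.4 to 49.0 and 87.3 to 94.5 CPM. Prkca held most of that sum. Grm6, the other marker tested, went the other way and was not called (5.97 ± 0.590 and 3.37 ± 0.449 CPM, log2 fold change -0.82). Lhx4, below the filter, was also lower at P11 (0.842 ± 0.229 and 0.400 ± 0.186 CPM). Both amacrine markers were tested and 1 was called in each direction, with sums of 6.29 to 7.30 and 13.3 to 20.97 CPM. Gad1 was higher at P11 (0.856 ± 0.280 and 13.8 ± 3.40 CPM). Prox1, which held most of the E21 sum, was lower at P11 (5.97 ± 0.518 and 2.63 ± 0.296 CPM). The cycling cell list had 2 of 4 markers called higher at P11, with Cdk1 at 0.343 ± 0.123 and 2.72 ± 1.31 CPM and sums of 4.68 to 6.79 and 7.49 to 19.0 CPM. Nuf2 was not called and was slightly lower at P11 (2.49 ± 0.259 and 2.30 ± 0.953 CPM). Cenpf was not called either (2.68 ± 0.789 and 4.44 ± 2.60 CPM, edgeR adjusted p = 0.109), and its highest value was 8.29 CPM in P11 replicate 4. The oligodendrocyte list had 1 of 2 markers, Mog, called higher at E21 (23.1 ± 1.90 and 10.4 ± 0.400 CPM) and summed to 25.8 to 32.1 and 13.8 to 15.1 CPM. None of the 4 microglia and leukocyte markers passed the filter, and they summed to 0.469 to 0.735 and 0.672 to 1.21 CPM. The 4 neuron markers summed to 3583 to 3730 CPM at E21 and 2484 to 2676 CPM at P11, with 1 called in each direction: Gap43, a growth cone gene, was lower at P11 (log2 fold change -1.46), and Cplx1, a synaptic gene named after its values were seen, was higher (1.13). Without Gap43 the neuron sum was 1945 ± 24.5 CPM at E21 and 1996 ± 109 CPM at P11 (exact permutation p = 0.371). All lists but the microglial one (two-sided exact permutation p = 0.171) differed between stages at p = 0.0286, the smallest the permutations can give, and 0.0317 after Benjamini-Hochberg adjustment over the 10 lists. Markers that define RGCs were not analysed here, since the symbols at hand did not include them. In such bulk libraries, fewer cells of a type and less RNA per cell cannot be told apart.

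Among the P11 libraries the mural and connective tissue sum was lowest in replicate 3 and highest in replicate 4, while the photoreceptor sum, at 68.6, 82.2, 84.7 and 72.4 CPM in replicates 1 to 4, was highest in replicate 3. Slc8a2 stood at 385 CPM in replicate 3 and 373 CPM in replicate 4, Slc7a4 at 48.0 and 47.5 CPM and Slc43a2 at 205 and 191 CPM. Slc46a3, Slc44a4 and Slc7a3 had their highest P11 values in replicate 3, the library with the highest photoreceptor sum. Slc7a3 was nearly the same in replicates 2 and 3, at 4.68 and 4.70 CPM, and lower in replicates 1 and 4. In replicates 1 to 4, Slc44a4 held 43, 42, 52 and 45 reads and Slc7a3 55, 79, 74 and 62. Differences of this size may be counting error, and a link with the photoreceptor sum was not tested. Slc4a4 had its lowest P11 value in replicate 3. Without P11 replicate 4 the log2 fold change of Slc8a2 was 1.94, that of Slc43a2 was 1.32 and that of Slc4a4 was 1.53, all still called. The P11 libraries left in that fit still held mural and connective tissue sums of 409 to 639 CPM, so the part of these cells was not tested by it. For Slc4a4 the glial markers S100b, which is higher at P11, and Gja1, which is higher at E21, moved apart between the stages, and the part of other cells in the change of this gene and of the other carriers was not tested.

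**Figure D5:**
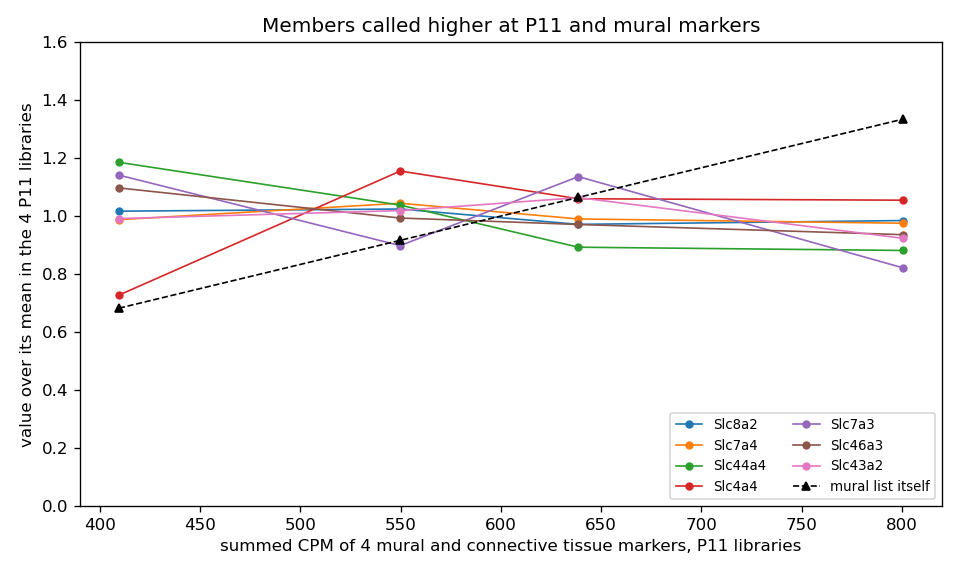
Level of the 7 genes called higher at P11 in each P11 library, divided by its mean over the 4 P11 libraries (y axis), against the summed CPM of 4 mural and connective tissue markers (x axis), which is also drawn over its own mean (black). The marker sum runs from 409 to 800 CPM, and the values of Slc8a2 lie between 368 and 388 CPM.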

How the data were processed

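RNA-seq of immunopanned RGCs was analysed for 4 E21 and 4 P11 libraries. The authors trimmed reads with Cutadapt 1.16, aligned them with STAR 2.5.3a to Rnor_6.0 and deposited whole-number read counts per gene from HTSeq 0.6.1, per the labels and submitters' processing notes. The annotation release and the strand setting are not given in the sources used here, so reads of a gene and an antisense or overlapping partner may not be separated. The 5 summary rows of each file were left out of library sizes and tests. Symbols came from the part of the study's gene table at hand, whose fold changes and p-values, the authors' own comparisons, were not used.

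Counts were filtered (filterByExpr), TMM-normalized and tested across all genes, without covariates, with the quasi-likelihood test of edgeR 4.0.16 in R 4.3.3. The thresholds for a call follow the study's methods. Standard errors are the log2 fold change over the square root of F. The prior count for ratios was 2. Of the 39 members, 3 are not reported here. Every other member is named, with all 8 values for called members and for the one of highest mean CPM in each class. Other listed genes were named where called with the largest change of their list. Selp, Gfap, Gja1, Cplx1, Grm6, Lhx4, Sox9, Rgs9, Prox1, Nuf2, Cenpf, Clcn4 and Clcn5 were named after their values were seen. The members, lists, pairs and motifs were chosen with earlier results of these data known. Litters are the replicates, and p-values weigh the stage difference against the spread between them, which edgeR moderates across genes. The amount of papain differed with stage and cannot be told apart from it. Alternatives were DESeq2 1.42.0, other scalings, filters and thresholds, a replicate block and leaving out each library. Replicate numbers did not pair the libraries.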

Additional observations from a re-analysis of the deposited data

Results flagged for a closer look

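A library far from the other 3 of its stage, by Dixon's test at the 95% level, was found in 5 of 70 sets of 4 values, and chance gives about 1 in 20. Slc26a1 had 5.78 CPM in E21 replicate 4, with 6.87 to 7.09 CPM in the other E21 libraries. Slc25a30 had 13.2 CPM in E21 replicate 4, with 11.96 to 12.1 CPM in the others. Slc29a3 had 8.84 CPM in P11 replicate 4, with 6.73 to 6.99 CPM in the others. Slc30a4 had 48.6 CPM in E21 replicate 3, with 51.2 to 51.5 CPM in the others, and 58.8 CPM in P11 replicate 3, with 52.9 to 53.5 CPM in the others. None of these 4 genes was called, and all kept the direction of their difference without any single library.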

How the results depend on the processing

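All 35 tested genes kept their direction under every alternative that tested them, and the calls of the 9 called genes held except as follows. With glmTreat, 4 members were called higher at P11 (Slc7a3, Slc4a4 and Slc46a3 were lost), and 668 of all genes were called higher at E21. With at least 10 counts in every library, Slc4a4 and Slc16a10 were not tested, 6 members were called higher at P11 and 1 higher at E21, and 1523 of all genes were called higher at P11. With single libraries left out, 2337 to 2443 of all genes were called higher at P11, 1109 to 1225 higher at E21, and 7 members higher at P11 and 2 to 3 higher at E21, the third being Slc10a6, which was called without E21 replicate 4 and without each of the P11 replicates.

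Leaving out libraries moved the log2 ratio changes to -0.92 to -0.64 for Slc7a1 against Slc7a3 and -0.41 to -0.24 for Slc19a1 against Slc19a2, and the unadjusted exact permutation p reached 0.0286 for each without E21 replicate 4. The cycling cell sum changed by 0.54 to 1.09 on the log2 scale, and its exact permutation p was 0.0857 to 0.114 without any 1 E21 library. Lists less 1 marker were chosen after seeing the data: less Gja1, the astrocyte and Müller cell sum turned to a log2 ratio of 1.45, and less Gap43 the neuron sum turned to 0.037. The other causes were not tested.

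With the replicate number as a block, 2316 and 1147 of all genes were called, and 7 and 2 members. The correlation of deviations between libraries of the same number was -0.02, 0.08, -0.03 and 0.07, and for 2 of the 4 numbers a library correlated best with its own number, so the numbers were not treated as a pairing. Depth limits the genes under 1 CPM most.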
